A study of Mus musculus with 8 samples.

Results

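The genes described here encode 10 proteins of branched-chain amino acid breakdown, namely Bcat1, Bcat2, Bckdha, Bckdhb, Dbt, Bckdk, Ivd, Mccc1, Hibadh and Hibch. They were chosen by name, with their differences between SDHD-ESR and +/- kidneys already known, so those differences are given below as a description and carry no test. The 10 genes were represented by 13 features (spots) of the array, of 45220 features and 22485 named genes in all. All 13 were among the 39253 features with at least 3 values in each group.

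Kidney RNA of male mice of strain 129/SvJ, aged 10 weeks, was hybridised to 8 two-colour arrays to ask how transcript levels respond soon after Sdhd is lost. SDHD-ESR mice carried a floxed and a null allele of Sdhd, which encodes a membrane anchor of succinate dehydrogenase, together with a recombinase, Cre-ER, that tamoxifen switches on. The +/- mice were littermates with the same floxed and null alleles and no Cre. The common pool, of RNA from 8 +/+ mice, came from littermates with a floxed and a normal allele and no Cre. All mice received 100 µg/g tamoxifen by daily intraperitoneal injection for 4 days, the first at 9 weeks of age, and were killed 1 week after it. Each group had 4 arrays with 2 mice on each, hence 8 mice, and mice that lost Sdhd were also those that carried Cre, so the effects of these cannot be told apart. The promoter that drives Cre-ER was not stated in the paper or the labels. The labels do not say whether replicates 1 to 4 of the groups were matched, and precision is limited by the small number of arrays. A tissue that lost cells of one type and a tissue with less RNA per cell cannot be told apart in whole kidney RNA.

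Leucine, isoleucine and valine are broken down in mitochondria by a shared opening and then by separate routes. A transaminase first moves the amino group to 2-oxoglutarate, which gives glutamate and a branched-chain keto acid. The branched-chain keto acid dehydrogenase complex then commits the keto acid to oxidation, and isoleucine and valine finally yield succinyl-CoA, the metabolite from which the Krebs cycle makes succinate, the substrate of succinate dehydrogenase. The kidney takes up and transaminates these amino acids, and most of its transaminase is the mitochondrial form encoded by Bcat2. Bcat1 encodes the cytosolic form, best known from brain and from tumours.

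The promoters of the transaminase pair are shown because Bcat1 was the member that differed most between genotypes and Bcat2 is its mitochondrial counterpart. They are windows from RefSeq (GRCm38.p6) of 250 bases before to 50 bases after an annotated start, read 5′ to 3′ on the strand of the gene. Capitals mark ACGTG or GCGTG on either strand, the core letters of the hypoxia response element. The motif was chosen because the study asked about the hypoxia pathway. Bcat1 lies on chromosome 6 and the windows of its upstream and downstream starts are chr6:145076108-145076407 and chr6:145048763-145049062, both on the minus strand. Bcat2 lies on chromosome 7 and its windows are chr7:45569903-45570202 and chr7:45571029-45571328, both on the plus strand.
Bcat1 upstream start: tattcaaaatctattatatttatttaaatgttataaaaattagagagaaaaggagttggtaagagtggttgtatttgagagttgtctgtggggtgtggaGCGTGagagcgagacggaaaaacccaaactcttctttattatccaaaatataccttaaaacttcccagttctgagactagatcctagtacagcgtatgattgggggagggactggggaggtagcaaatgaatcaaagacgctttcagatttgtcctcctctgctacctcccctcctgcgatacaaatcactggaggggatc
Bcat1 downstream start: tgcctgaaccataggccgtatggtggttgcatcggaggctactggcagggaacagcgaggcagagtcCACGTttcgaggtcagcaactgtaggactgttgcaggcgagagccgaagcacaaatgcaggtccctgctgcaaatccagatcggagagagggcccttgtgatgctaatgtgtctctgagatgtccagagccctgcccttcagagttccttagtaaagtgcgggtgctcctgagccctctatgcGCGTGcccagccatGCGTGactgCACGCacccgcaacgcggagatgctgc
Bcat2 upstream start: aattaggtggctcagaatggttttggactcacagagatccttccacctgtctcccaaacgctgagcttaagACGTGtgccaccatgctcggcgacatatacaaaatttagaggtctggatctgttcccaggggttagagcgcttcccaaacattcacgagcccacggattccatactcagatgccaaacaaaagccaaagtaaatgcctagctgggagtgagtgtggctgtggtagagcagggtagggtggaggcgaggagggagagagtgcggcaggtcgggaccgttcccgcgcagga
Bcat2 downstream start: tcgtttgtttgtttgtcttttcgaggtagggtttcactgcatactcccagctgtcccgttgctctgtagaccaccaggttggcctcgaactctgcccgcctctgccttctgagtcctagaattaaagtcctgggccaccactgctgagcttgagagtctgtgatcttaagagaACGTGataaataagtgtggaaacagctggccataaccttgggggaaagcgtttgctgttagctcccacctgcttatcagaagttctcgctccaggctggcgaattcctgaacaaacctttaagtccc

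The upstream window of Bcat1 held 1 core and was 41.0% G and C, and the downstream window held 4 cores and was 58.7% G and C. Each Bcat2 window held 1 core. Of the 10 genes 9 matched the RefSeq table, with 12 windows, and 7 of these windows held a core. Among all 32851 windows of that length 43.8% held one. Dbt had no entry. A match of letters is a description and no evidence of a bound factor.

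All values below are log2 ratios of kidney RNA to the +/+ pool after the median of each array was set to 0, and a difference is SDHD-ESR minus +/- with its standard error from limma. Values of single arrays run in the order of replicates 1 to 4. The sign of all deposited ratios was turned, because Sdhd stood above the pool on all 8 arrays as deposited, and with the deposited sign every direction in the text would reverse. Features were matched to genes by an array layout that was inferred from the values. After these steps Sdhd lay at -4.26, -3.65, -5.04 and -3.25 in SDHD-ESR kidneys, against -0.79, -0.40, -0.92 and -0.93 in +/- kidneys, which did not overlap. The difference was -3.29 ± 0.37 (adjusted p = 0.108 with limma over all tested features), and since Sdhd set the sign it is not a check of the direction. Before centring, array medians were -0.00, -0.06, 0.38 and 0.94 in SDHD-ESR and -0.19, -0.19, 0.20 and 0.41 in +/- arrays, so that uncentred differences would stand 0.26 higher on average. Replicates 1 and 2 of both groups were on slide 1 and replicates 3 and 4 on slide 2, so differences are also given within slides. SDHD-ESR and +/- arrays took different positions on each slide, so that position and genotype cannot be told apart. Since all ratios were taken to a kidney pool, the presence of kidney markers could not be checked.

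Of the 13 features, those of Bckdha and Hibadh carried no usable ratio. Bckdha encodes the alpha subunit of the decarboxylase (E1) of the keto acid dehydrogenase, and Hibadh encodes the 3-hydroxyisobutyrate dehydrogenase of the valine route. Before centring, the Bckdha ratio lay between -0.0051 and 0.0653 and was within 0.01 of 0 on 7 of the 8 arrays, and the Hibadh ratio lay between -0.0072 and 0.0002. Centring spread them over -0.87 to 0.19 and -0.94 to 0.19, which is the spread of the array medians and no measure of either gene. The other 11 features, of 8 genes, were kept, and 10 of them had all 8 values.

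**Figure D1:**
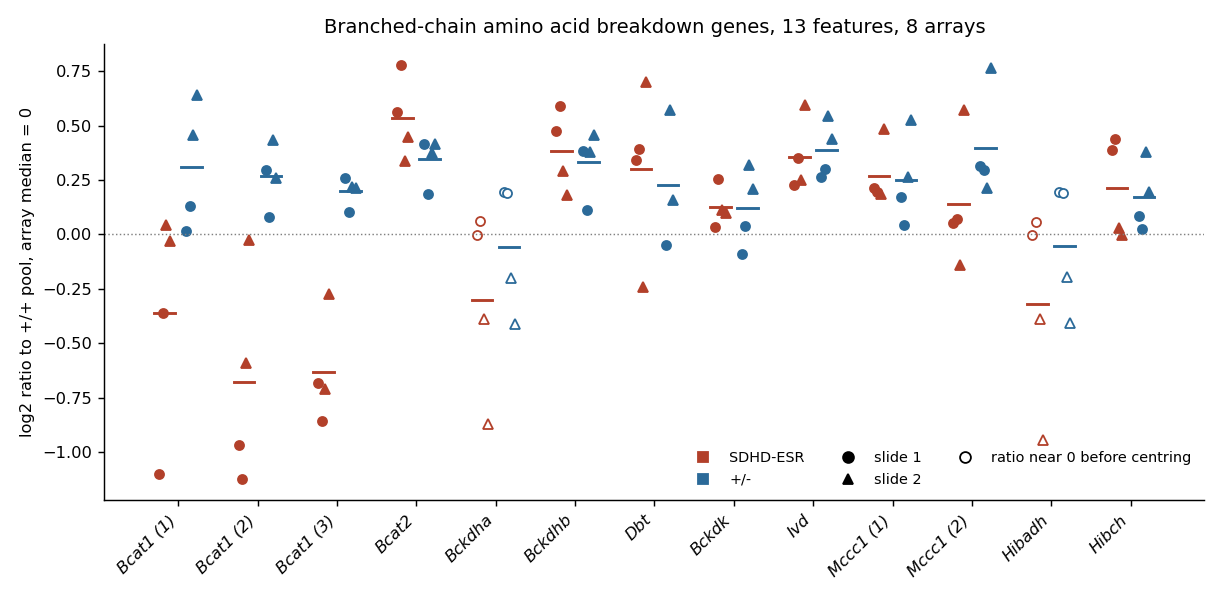
Log2 ratio to the +/+ pool (array median set to 0, vertical axis) of the 13 features of the 10 breakdown genes on 8 arrays, with SDHD-ESR (red) left of +/- (blue), circles for slide 1, triangles for slide 2 and a bar at the group mean. Bcat1 (2) and (3), features 6638 and 37494, do not overlap between groups, with SDHD-ESR lower on these centred arrays, and open symbols mark Bckdha and Hibadh, whose ratio was near 0 before centring.

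Bcat1 was lower in SDHD-ESR kidneys. The mean of its features was -0.56 ± 0.36 in SDHD-ESR and 0.26 ± 0.13 in +/- kidneys (SD, n = 4 arrays each), a difference of -0.82 ± 0.18, so that SDHD-ESR kidneys held 56.8% of the +/- level. By array the gene mean was -0.92, -0.78, -0.42 and -0.11 in SDHD-ESR, against 0.19, 0.11, 0.37 and 0.37 in +/- kidneys. After centring, all SDHD-ESR arrays were below the pool, all +/- arrays were above it, and the groups did not overlap. Without centring the values were -0.92, -0.84, -0.04 and 0.83 in SDHD-ESR and -0.00, -0.09, 0.56 and 0.78 in +/- kidneys. The groups then overlapped, with SDHD-ESR replicate 4 the highest of all 8 arrays, and the difference was -0.56. The lowest centred SDHD-ESR values were on slide 1, and the SDHD-ESR arrays spread over 0.81 against 0.27 for the +/- arrays.

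The 3 Bcat1 features, which share 1 transcript accession (NM_007532), gave the same direction with different overlap. Feature 37494 read -0.68, -0.86, -0.71 and -0.27 in SDHD-ESR and 0.26, 0.10, 0.22 and 0.21 in +/- kidneys, a difference of -0.83 ± 0.13. It was the most even of the 3, and its groups did not overlap. Feature 6638 read -0.97, -1.12, -0.59 and -0.03 in SDHD-ESR and 0.30, 0.08, 0.43 and 0.26 in +/- kidneys, a difference of -0.95 ± 0.24. Its groups did not overlap either, although SDHD-ESR replicate 4 lay close to the pool. Feature 3813 read -1.10, -0.36, 0.04 and -0.03 in SDHD-ESR and 0.02, 0.13, 0.46 and 0.64 in +/- kidneys, a difference of -0.67 ± 0.28. Here the groups overlapped, because SDHD-ESR replicate 3 lay above +/- replicate 1, and without SDHD-ESR replicate 1 the difference was -0.43. Over the 8 arrays, whose 2 genotypes the features share, Pearson's r between features was 0.96 for 6638 with 37494, 0.79 for 3813 with 6638 and 0.71 for 3813 with 37494.

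Among all tested features 2.53% were lower and 2.84% were higher in SDHD-ESR without overlap between groups. Of the 11 kept members 2 were lower without overlap, both of Bcat1, and none was higher, a count that the choice of members already used and from which nothing is read. Without centring all 11 overlapped. A difference of -0.67 or less, as in the smallest of the Bcat1 features, was found in 4.64% of tested features. At an adjusted p of 0.05 or less, limma called 0.0153% of tested features between genotypes, and none of the member features was among them, a count from which nothing is read either. The Bcat1 gene difference was -0.997 on slide 1 and -0.64 on slide 2. The genes whose 8 array values were most like those of Bcat1, among 18575 genes with all 8 values, were Sap30 (r = 0.99), Galnt1 (r = 0.98) and Ccnb1-ps (r = 0.98), on arrays that share the 2 genotypes.

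Marker transcripts of several other cell types also had different means in SDHD-ESR and +/- kidneys, although limma called none of their features at an adjusted p of 0.05 or less. By unadjusted p at that threshold, 3 of 7 fibroblast, 13 of 18 endothelial, 1 of 20 macrophage and 0 of 17 lymphocyte features were lower, where 3.34% of all tested features were. On the other side 4 of 26 liver and 1 of 8 adrenal cortex features were higher, where 3.88% were. The same held for 1 of 9 distal nephron and collecting duct features and for 1 of 17 fat features. The 18 endothelial features came from 8 genes, the 20 macrophage features from 8 and the 26 liver features from 13. Features of a gene are not independent, so these counts overstate the number of separate observations. The mean of 7 fibroblast markers ran from -1.30 to -0.68 in SDHD-ESR and from -0.58 to -0.26 in +/- kidneys, with 6 of the 7 lower. The mean of 8 endothelial markers ran from -0.21 to 0.01 in SDHD-ESR and from -0.01 to 0.26 in +/- kidneys, with 7 of the 8 lower. Macrophage markers ran from -0.93 to -0.42 in SDHD-ESR and from -0.68 to -0.33 in +/- kidneys, with 7 of 8 lower. Lymphocyte markers ran from -0.45 to -0.21 in SDHD-ESR and from -0.23 to 0.08 in +/- kidneys, with 6 of 7 lower. Adrenal cortex markers ran from -1.31 to -0.25 in SDHD-ESR and from -1.50 to -0.95 in +/- kidneys, with 5 of 6 higher. Liver markers ran from -1.26 to -0.12 in SDHD-ESR and from -1.44 to -0.93 in +/- kidneys, with 10 of 13 higher. Distal nephron and collecting duct markers differed little, by 0.06 (4 of 7 higher), as did fat markers, by -0.05 (4 of 6 lower). Skeletal muscle markers differed by 0.33 (4 of 5 higher), with SDHD-ESR replicate 1 at 1.27 and the other SDHD-ESR arrays from -2.48 to -1.65. Only 3 of 12 proximal tubule markers could be read, since 11 of their 14 features had ratios near 0. The mean of these 3 ran from -0.32 to 0.22 in SDHD-ESR and from 0.12 to 0.37 in +/- kidneys, with 2 of 3 lower. By unadjusted p 1 of the 3 features was lower. The part of any of these in the Bcat1 difference was not tested.

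Bcat2, the mitochondrial transaminase, stood above the pool in both genotypes. It read 0.56, 0.78, 0.34 and 0.45 in SDHD-ESR and 0.41, 0.18, 0.37 and 0.42 in +/- kidneys. The groups overlapped, with the 2 SDHD-ESR arrays of slide 1 above all the others. The difference was 0.19 ± 0.12, and it was 0.37 on slide 1 and -0.00 on slide 2. The transaminases therefore had differences of opposite sign, -0.82 for Bcat1 and 0.19 for Bcat2, and only the Bcat1 groups stood apart, after centring.

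**Figure D2:**
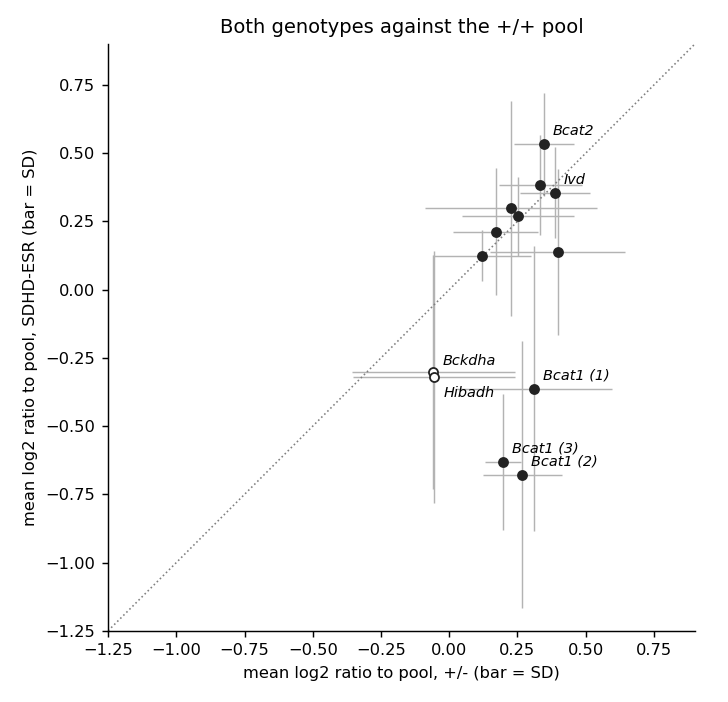
Mean log2 ratio to the +/+ pool in SDHD-ESR (vertical axis) against +/- kidneys (horizontal axis) for the 13 features, with bars for the SD over arrays and a dotted line of equality. Most features lie above the pool on both axes near the line, the 3 Bcat1 features lie below it at -0.36, -0.68 and -0.63 in SDHD-ESR, and open circles are Bckdha and Hibadh, whose ratio was near 0 before centring.

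The keto acid dehydrogenase complex was read through its beta subunit of E1 (Bckdhb), its acyltransferase core, E2 (Dbt), and the kinase that phosphorylates and inactivates E1 (Bckdk). Bckdhb read 0.48, 0.59, 0.29 and 0.18 in SDHD-ESR and 0.38, 0.11, 0.38 and 0.46 in +/- kidneys, a difference of 0.05 ± 0.13. Its groups overlapped over most of their range. Dbt read 0.34, 0.39, -0.24 and 0.70 in SDHD-ESR, and -0.05, 0.57 and 0.16 on +/- replicates 2 to 4, with no value for replicate 1. The difference was 0.07 ± 0.26, the widest error among the members other than Bcat1. Bckdk read 0.03, 0.26, 0.11 and 0.10 in SDHD-ESR and -0.09, 0.04, 0.32 and 0.21 in +/- kidneys, a difference of 0.00 ± 0.11. The enzyme subunits and their inhibitory kinase thus all had differences smaller than their standard errors.

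Of the enzymes further down, Ivd opens the leucine route as isovaleryl-CoA dehydrogenase. It read 0.23, 0.35, 0.25 and 0.59 in SDHD-ESR and 0.26, 0.30, 0.54 and 0.44 in +/- kidneys, a difference of -0.03 ± 0.12, with overlapping groups. Mccc1 encodes the biotin-bearing alpha subunit of the next leucine enzyme, methylcrotonyl-CoA carboxylase, and had 2 features. Feature 22347 read 0.05, 0.07, -0.14 and 0.57 in SDHD-ESR and 0.31, 0.30, 0.21 and 0.76 in +/- kidneys, a difference of -0.26 ± 0.19. Feature 1791 read 0.21, 0.19, 0.18 and 0.49 in SDHD-ESR and 0.17, 0.04, 0.26 and 0.53 in +/- kidneys, a difference of 0.02 ± 0.13. The Mccc1 features differed in sign, their groups overlapped, and in both the highest array of each genotype was replicate 4. Hibch, the 3-hydroxyisobutyryl-CoA hydrolase of the valine route, read 0.39, 0.44, 0.03 and -0.00 in SDHD-ESR and 0.08, 0.02, 0.38 and 0.19 in +/- kidneys, a difference of 0.04 ± 0.14. Its SDHD-ESR values were high on slide 1 and low on slide 2, and its +/- values ran the other way.

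Apart from Bcat1, the 8 kept features of 7 genes differed between genotypes by -0.26 to 0.19. The median difference over the 11 kept features was 0.00, against 0.02 over all tested features with those near 0 left out. All 11 kept features, of 8 genes, averaged above the pool in +/- kidneys, where 49.1% of tested features did, those near 0 included. In SDHD-ESR kidneys 8 of the 11 averaged above the pool, against 49.5% of tested features on the same count, and the other 3 were those of Bcat1. In +/- kidneys limma called 3 of the 11 above the pool and 0 below it, where 10.0% and 5.94% of tested features were called. In SDHD-ESR it called 3 above and 2, both of Bcat1, below, where 14.4% and 7.72% were called. At the deposited level none was called in either group. Nothing is read from these counts, since the members were chosen with differences between these groups known. Without centring 8 averaged above the pool in SDHD-ESR and 11 in +/- kidneys. The array medians then averaged 0.32 in SDHD-ESR and 0.05 in +/-, so the shares above do not apply to this count. Leaving out Bcat1, the means lay between 0.12 (Bckdk) and 0.53 (Bcat2) in SDHD-ESR and between 0.12 (Bckdk) and 0.40 (Mccc1 feature 22347) in +/- kidneys. The dye and the contrast with the pool cannot be told apart, since the pool was in Cy3 on every array.

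**Figure D3:**
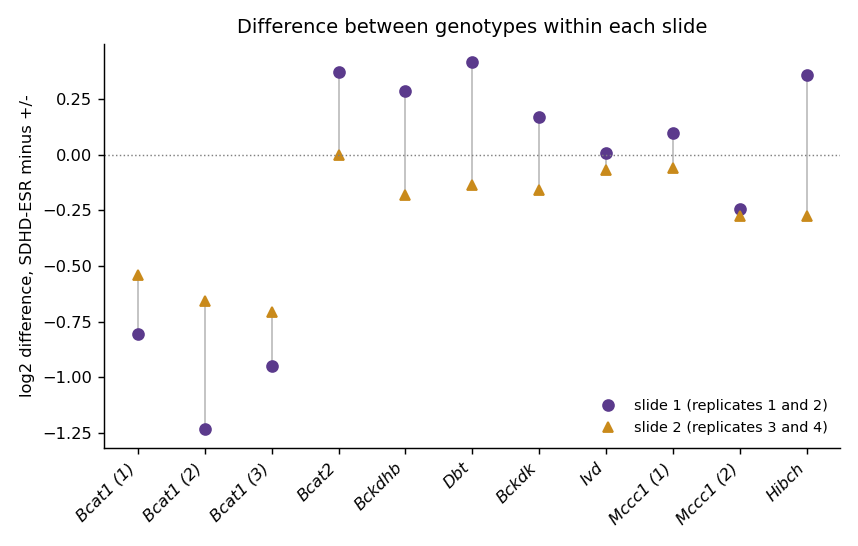
Log2 difference, SDHD-ESR minus +/- (vertical axis), of the 11 kept features from the 2 arrays per group of slide 1 (circles) and of slide 2 (triangles). Bcat1 is below 0 on both slides, while 7 of the other 8 features are above 0 on slide 1 and below 0 on slide 2 (Bcat2 at -0.00), and Mccc1 (2), feature 22347, is below 0 on both.

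In 7 of the 11 kept features, those of Bcat2, Bckdhb, Dbt, Bckdk, Ivd, Hibch and Mccc1 feature 1791, the difference was above 0 on slide 1 and below 0 on slide 2, and whether the slides differed was not tested. The other 4 were below 0 on both slides, and slide 1 had a median difference of 0.10. Slide 2, on which all 11 were below 0, had a median of -0.18. Over all features without those near 0, 54.8% were higher on slide 1 (median 0.03) and 50.5% on slide 2 (median 0.00). Bckdhb differed by 0.29 on slide 1 and by -0.18 on slide 2, and Hibch by 0.36 and by -0.27. Dbt differed by 0.42 on slide 1, where +/- had 1 value, and by -0.13 on slide 2, and Bckdk by 0.17 and by -0.16. Mccc1 feature 1791 differed by 0.10 on slide 1 and by -0.06 on slide 2, and feature 22347 by -0.24 and by -0.27. Ivd differed by 0.01 and by -0.07, less than the spread of its arrays on either slide. Without centring, Bcat2 differed by 0.45, Hibch by 0.30, Bckdhb by 0.31, Bckdk by 0.27 and Ivd by 0.23, since the median shift between the groups was then part of each value.

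**Figure D4:**
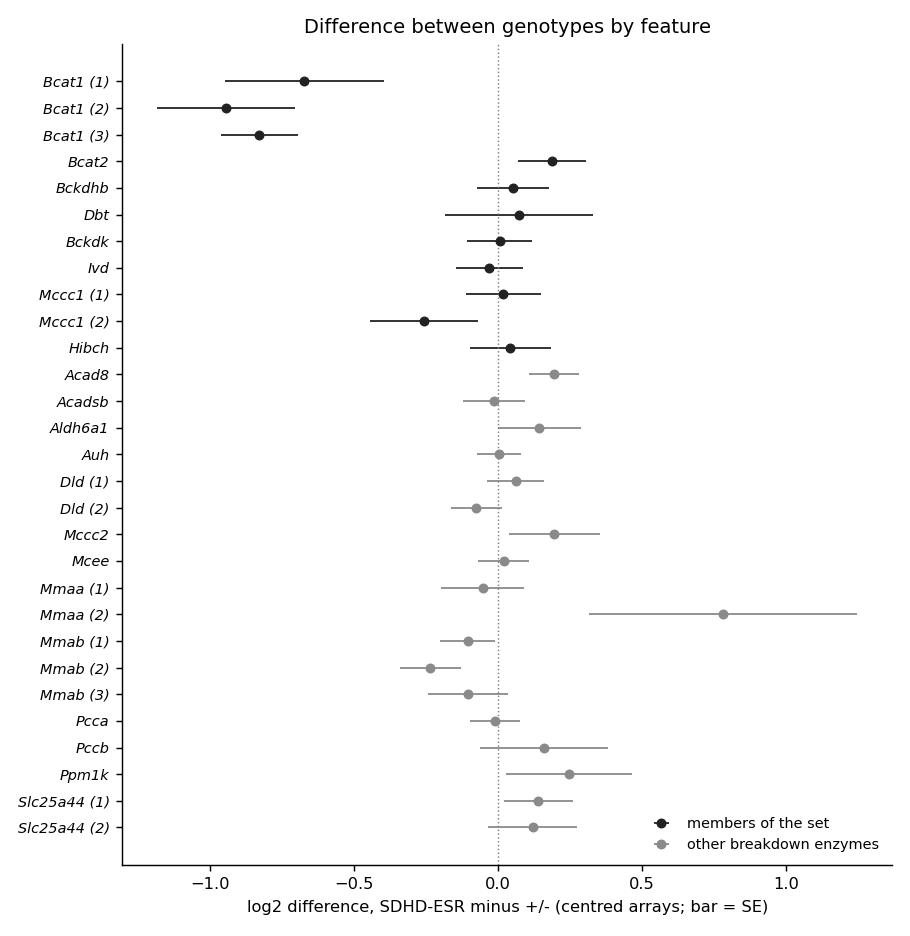
Log2 difference, SDHD-ESR minus +/- (horizontal axis, centred arrays), of the 11 kept members of the set (black) and of 18 features of other breakdown enzymes (grey), with bars for the standard error. The 3 Bcat1 features lie at -0.67, -0.95 and -0.83, most other features lie within their error of 0, and a feature of Mmaa at 0.78 has the widest bar.

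The rest of the pathway was read from a list of 18 other breakdown enzymes, of which 16 were matched by name and 18 features of 13 genes were kept. Of these features 11 were higher and 7 lower in SDHD-ESR, with a median of 0.04, where 52.6% of all tested features were higher. None was called by limma, and 0 passed an unadjusted p of 0.05. Of all tested features 3.88% passed it with a higher value in SDHD-ESR and 3.34% with a lower one. Acad8, isobutyryl-CoA dehydrogenase of the valine route, read 0.32, 0.45, 0.27 and 0.30 in SDHD-ESR and 0.15, 0.27, 0.12 and 0.03 in +/- kidneys. Its groups just failed to overlap after centring, and overlapped without it, with a difference of 0.19 ± 0.09 on centred arrays (adjusted p = 0.712). Mmab, which makes the adenosylcobalamin cofactor of methylmalonyl-CoA mutase, had 3 features, all negative, of which the lowest was -0.24 ± 0.11 (adjusted p = 0.713). Mmaa, a chaperone of that mutase, had a feature at 0.78 ± 0.47 (adjusted p = 0.795) and another at -0.05. Mccc2, the partner subunit of Mccc1, differed by 0.19 ± 0.16 (adjusted p = 0.851), by 0.49 on slide 1 and by -0.10 on slide 2. On slide 1 the median of these 18 features was 0.11, with 11 higher in SDHD-ESR, and on slide 2 it was -0.08, with 6 higher. Of the 11 kept members 7 were higher on slide 1 and 0 on slide 2. Over all features without those near 0 the shares were 54.8% and 50.5%. Against the pool, limma called 5 of these features above it and 1 below it in SDHD-ESR kidneys, where 14.4% and 7.72% of tested features were called. In +/- kidneys it called 2 above and 0 below, where 10.0% and 5.94% were called.

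Transporters of branched-chain and other neutral amino acids, 10 genes of which 9 had 19 kept features, were lower in SDHD-ESR in 15 features and higher in 4. On slide 1, 14 were lower and 5 higher (median -0.43), and on slide 2, 6 were lower and 13 higher (median 0.29). None was called, and 1 was higher at an unadjusted p of 0.05 or less. Of these features 10 belonged to Slc7a8, all lower on slide 1, where SDHD-ESR replicate 2 read -1.07 to -0.75, and all higher on slide 2. Slc7a5, the light chain of the large neutral amino acid exchanger, had a feature at 1.70 ± 0.54 (adjusted p = 0.605, from 3 SDHD-ESR arrays) and another at -0.05, so that the gene had no single direction. Slc43a1, a facilitated carrier of the same amino acids, differed by 0.59 ± 0.46. Slc6a15 and Slc6a20b, sodium-dependent neutral and imino acid carriers, differed by -0.26 ± 0.17 and by -0.17 ± 0.12. The groups of Slc43a1, Slc6a15 and Slc6a20b overlapped.

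Among 4 known regulators of the pathway or of mitochondrial gene expression, 5 of 7 features were higher, of which none was called and 1 passed by unadjusted p. Ppara, a nuclear receptor that controls fatty acid oxidation, had features at 0.35 ± 0.11 (adjusted p = 0.584) and 0.34 ± 0.17 (adjusted p = 0.732), and another at -0.06 ± 0.23. The groups of the first pair did not overlap after centring, and they overlapped without it. Ppargc1a, a coactivator of mitochondrial biogenesis, had features at 0.25 ± 0.21 and 0.08 ± 0.11. Downstream of the pathway, 6 of 9 features from succinyl-CoA to fumarate had ratios near 0. Of those that remained, Suclg2, a subunit of succinyl-CoA ligase, differed by 0.33 ± 0.12 (adjusted p = 0.638) and Sdhc, the other membrane anchor of succinate dehydrogenase, by -0.04 ± 0.07. Of the related 2-oxo acid dehydrogenases, which are built like the branched-chain complex, 8 features were kept, none was called and 0 passed by unadjusted p. Pdhb, the E1 beta subunit of pyruvate dehydrogenase, had a feature at -0.17 ± 0.08 (adjusted p = 0.694) and others at 0.11 and -0.07. The groups of the first did not overlap after centring, and they overlapped without it. Dhtkd1, an E1 of the lysine route, differed by 0.22 ± 0.14 (adjusted p = 0.807).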

How the data were processed

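Kidney RNA of SDHD-ESR and +/- mice was measured against a pool of +/+ RNA on two-colour Agilent arrays, of which 8 entered the comparison. The authors labelled 200 ng of RNA per array (sample Cy5, pool Cy3, no dye swap), scanned in a GenePix reader and analysed the scans in Multi-Experiment Viewer. Background correction, normalization and log base were not given in the sources used here, and the methods state the dye wavelengths in swapped order. The deposited values are treated as a score of mixed kind. Of these values 9.03% were whole numbers (the largest 65024 in absolute size), which were set to missing, and the rest were read as log2 ratios by the authors' formula and base 2. Rows did not follow the platform's feature numbers. A scanner grid was used because spots of an accession then agreed (intraclass correlation 0.716 for 387 accessions of 10 or more spots, -0.006 for plain numbering). For the 4949 accessions of 2 to 9 spots, among them those of Bcat1 and Mccc1, the correlation was lower, 0.314 (-0.005 for plain numbering). Of 33026 named features 32438 had a RefSeq gene ID and none was renamed.

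The sign was turned and each array was centred on its median. Features with a ratio within 0.01 of 0 on at least 2 arrays (1725, of which 1724 had enough values to be tested) were kept out of member and list summaries. Features with at least 3 values per group entered a fit in limma 3.58.1 under R 4.3.3 (a mean per group, empirical Bayes, two-sided, Benjamini-Hochberg over 39253 features, threshold 0.05), after the steps were tested on simulated data. Figures used matplotlib 3.10.9. Alternatives were the deposited level, replicate and slide blocks, single slides, other filters, a robust prior, features averaged per gene, each array left out, and the joint criteria of the study. All members are named, and from each other list up to 4 of smallest unadjusted p. Members and lists were chosen with earlier results of these data known. Nothing says that arrays of a group were processed apart, so p-values measure the spread between arrays.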

Additional observations from a re-analysis of the deposited data

Results flagged for a closer look

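In 3 of 27 features examined, after centring, all SDHD-ESR arrays lay below the pool and all +/- arrays above it. They were Bcat1 feature 6638, with a difference of -0.95, Bcat1 feature 37494, with -0.83, and Pdhb feature 10588, with -0.17. The difference is given with no test for Bcat1, which was chosen with it known, and had an adjusted p of 0.694 with limma for Pdhb. The 27 were the kept members and the features named by smallest unadjusted p, so nothing is read from the count. Among all tested features 2.53% were lower in SDHD-ESR without overlap. The share with this pattern of signs was not computed. In 51 groups of 4 arrays, 2 held a single array far from the others, and chance gives about 1 in 20. Mccc1 feature 1791 read 0.49 in SDHD-ESR replicate 4 and 0.18 to 0.21 on the other SDHD-ESR arrays. Ppara feature 772 read 0.89 in SDHD-ESR replicate 2 and 0.61 to 0.62 on the other SDHD-ESR arrays.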

How the results depend on the processing

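Between SDHD-ESR and +/- kidneys limma called 6 features. It called 2 at the deposited level, with a slide block or with a robust prior, 1 with the replicate block, 3 with features averaged per gene, 0 on slide 1 alone and 0 on slide 2 alone (3514 and 2172 by unadjusted p at the same threshold), and 0 to 4 with an array left out (2610 at an unadjusted p where it was 0, without SDHD-ESR replicate 3). The joint criteria of the study gave 1473. Same-numbered arrays of the groups, which were on the same slide, had deviations with r of 0.04, 0.03, -0.02 and 0.08. These values do not settle whether the arrays were matched. Against the pool, SDHD-ESR had 8703 calls, with 726 at the deposited level, 117 on slide 1 alone, 0 on slide 2 alone (11191 unadjusted), 4880 with features averaged and 4949 to 7868 with an array left out. The +/- group had 6266 calls, with 458, 125, 0 (9696 unadjusted), 3467 and 1859 to 5486 under the same changes. Over 18 settings the Bcat1 difference ran from -0.997 to -0.56, that of Bcat2 from -0.00 to 0.45, Bckdhb from -0.18 to 0.31, Hibch from -0.27 to 0.36, Bckdk from -0.16 to 0.27, Ivd from -0.11 to 0.23, and Mccc1 from -0.23 to 0.14. That of Dbt, which gave a value in 13 settings, ran from -0.13 to 0.25. Either block, the robust prior, averaging per gene and the filters for all 8 values or near 0 left the Bcat1 difference at -0.82. These settings could not move it, so they add no check of its size. Without centring no kept member had groups that stood apart. SDHD-ESR replicate 4 then had a median of 0.94, and Bcat1 in SDHD-ESR replicate 3 (-0.04) also lay above +/- replicate 2 (-0.09). None of the other pathway features was called at the deposited level or with either block. With 4 arrays per group, small differences cannot be separated from array or slide position, and without a dye swap contrasts with the pool cannot be separated from dye.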
